A study of Mus musculus with 32 samples.

Results

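The miR-15/16 family with miR-322 and miR-503 was followed in mesenteric arteries of mice given angiotensin II (Ang II), a peptide hormone that raises blood pressure. Members were taken by name from the deposited miRNA table, as both arms of miR-15a, miR-15b, miR-16, miR-195a, miR-497, miR-322 and miR-503. They came to 15 of 1030 distinct rows with reads, under 7 base names. Rows with a mean of at least 1 normalised RPM were tested, which took in 14 members and 543 rows in all. The exception was miR-503-5p, with 66 reads over all libraries. Normalised RPM (RPM below) is a library's read count divided by a size that the authors' processing set for that library, scaled as reads per M (mega).

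All mice were wild-type males of the strain C57BL/6J, aged 10 to 12 weeks. The 4 groups were Ang II for 7 days, sham surgery for 7 days, Ang II for 14 days and sham surgery for 14 days. Ang II was given at 1000 ng/kg/min from a minipump under the skin, and no vehicle infusion is named for the sham mice. Each group had 8 libraries, each under its own mouse number, and 10 mice per group are stated. Arteries had been cleared of fat and veins, so RNA from smooth muscle, endothelium, nerves and remaining blood was read together.

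The miR-15/16 family is made of miRNAs that share the seed, the bases that pair with target mRNAs. It is best known for repressing genes of the cell cycle and of cell survival, among them cyclin D1, cyclin E1 and Bcl2. The pair miR-15a and miR-16-1 is lost in many human chronic lymphocytic leukaemias, miR-195 is known to restrain the division of heart muscle cells after birth in the mouse, and miR-322 with miR-503 is known to promote cell cycle exit in differentiating mouse muscle cells. The human counterpart of miR-322 is named miR-424. Each hairpin can yield a 5p and a 3p arm, of which 1 is usually kept and the other is degraded.

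The 7 arms from the 5p side are shown first, because they carry the seed that defines the family. Sequences are from RefSeq for the assembly GRCm38.p6, all 15 members were matched, and capitals mark the seed, bases 2 to 8.
miR-15a-5p: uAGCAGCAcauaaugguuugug
miR-15b-5p: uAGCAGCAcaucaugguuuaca
miR-16-5p: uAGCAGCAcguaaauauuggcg
miR-195a-5p: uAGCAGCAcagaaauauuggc
miR-497-5p: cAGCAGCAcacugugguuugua
miR-322-5p: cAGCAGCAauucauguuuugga
miR-503-5p: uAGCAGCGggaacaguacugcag

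The seed AGCAGCA was shared by 6 of them, and miR-503-5p had AGCAGCG. Counted from the 5′ end, miR-16-5p and miR-195a-5p had equal bases at 19 of 21 positions, the closest pair. For miR-15a-5p and miR-15b-5p it was 18 of 22, and miR-503-5p matched the others at 10 to 12. How reads that could fit more than 1 of these sequences were counted is not given in the sources used here, so the split between miR-16-5p and miR-195a-5p is uncertain for shortened or edited reads. Outside the named members, the same seed was found in miR-195b, on chromosome 2, which had 21 reads in 4 libraries, and in miR-6342, miR-6353 and miR-6419, which had no row with reads.

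The 3p arms share no seed. Those of miR-15b, miR-16 and miR-503 are printed because they tell apart the hairpins of miR-16 and carry values discussed below, and that of miR-195a because of its likeness to miR-16-1-3p.
miR-15b-3p: cGAAUCAUuauuugcugcucua
miR-16-1-3p: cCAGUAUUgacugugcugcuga
miR-16-2-3p: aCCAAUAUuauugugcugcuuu
miR-195a-3p: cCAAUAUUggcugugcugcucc
miR-503-3p: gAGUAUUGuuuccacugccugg

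The 2 hairpins of miR-16 give the same 5p arm and different 3p arms, which had equal bases at 12 of 22 positions. The 3p arms of miR-16-1 and miR-195a had 18 of 22. In GRCm38, with genes from GENCODE vM21, Mir15a (chr14:61632027-61632110, minus strand) lies in an intron of the noncoding gene Dleu2, and Mir16-1 (chr14:61631880-61631972, minus strand), 54 bases away, overlaps an exon of it. Mir15b (chr3:69009772-69009835, plus strand) and Mir16-2 (chr3:69009902-69009996, plus strand) lie 66 bases apart in an intron of Smc4, which encodes a condensin subunit. Mir497 (chr11:70234717-70234800, plus strand) and Mir195a (chr11:70235042-70235135, plus strand) are 241 bases apart, and Mir322 (chrX:53054255-53054349, minus strand) and Mir503 (chrX:53053984-53054054, minus strand) are 200 bases apart. No other annotated gene overlaps these last 4 hairpins.

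Libraries held 11.4 to 18.8 M (mega) reads in distinct rows. In RPM, 3 reads were worth 0.0888 to 0.351, depending on the library, and limits set from them cover counting error only. Markers of the labelled tissue were abundant. The 4 smooth muscle arms of miR-143 and miR-145a summed to 196039 to 739444 RPM, and both arms of the endothelial miR-126a to 12975 to 35282 RPM. Markers of other tissues were read too, of which the highest arms are given. Epithelial miR-141-3p averaged 1232 ± 552, striated muscle miR-133a-3p 933 ± 178 and neuronal miR-9-5p 244 ± 80.0 RPM (SD, n = 32 each). Pancreatic acinar miR-217-5p averaged 97.6 ± 32.3 RPM (SD, n = 32). Their source was not tested. Once group means were taken off, 1 principal component held 35.4% of the variance over the 529 tested rows outside the family, and libraries fell on either side of it. They are called class A (19 libraries) and class B (13 libraries). At 7 days class A took 3 Ang II and 5 sham libraries, and at 14 days it took 6 Ang II and 5 sham libraries, out of 8 in each case. The classes are not labelled groups. They went with the scaling of the libraries: the deposited values of a library summed to 0.727 to 1.24 M in class A and to 1.15 to 1.67 M in class B. The source of the classes was not tested.

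The family was dominated by miR-16-5p. It averaged 6683 ± 1151 RPM over all libraries (SD, n = 32), with a lowest value of 4641, a median of 6477 and a highest value of 8870 RPM. It was followed by miR-195a-5p with 954 ± 141.6 and miR-497-5p with 291 ± 63.8 RPM (SD, n = 32 each). All libraries kept this order, with no overlap between the 3.

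Lower in the order, miR-15a-5p averaged 104 ± 23.6 RPM, miR-322-5p averaged 49.2 ± 9.69 RPM and miR-15b-5p averaged 29.5 ± 12.3 RPM (SD, n = 32 each). The ranges of the last 2, which were 38.1 to 73.9 RPM for miR-322-5p and 12.6 to 58.7 RPM for miR-15b-5p, overlapped. The arm of miR-503 on the seed side, miR-503-5p, was the lowest member at 0.124 ± 0.128 RPM (SD, n = 32), with at most 9 reads and with 0 reads in 7 libraries, which is under the limit of 3 reads. These are levels of whole mature molecules of 21 to 23 bases, so no correction for length applies, but differences in how well each sequence is captured were not corrected.

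Of the reads from the 6 arms with the seed AGCAGCA, miR-16-5p supplied 82.2% ± 2.06, miR-195a-5p 11.98% ± 2.16 and miR-497-5p 3.57% ± 0.470 (SD, n = 32 each). The other 3 arms supplied 1.28% ± 0.169 (miR-15a-5p), 0.611% ± 0.0958 (miR-322-5p) and 0.355% ± 0.109 (miR-15b-5p). Together the 6 arms were 0.876% ± 0.308 of the reads in distinct rows. The table lists miR-16-5p in 2 rows whose values differed by 0.0054% to 0.236% in a library, and the higher row was used.

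**Figure D1:**
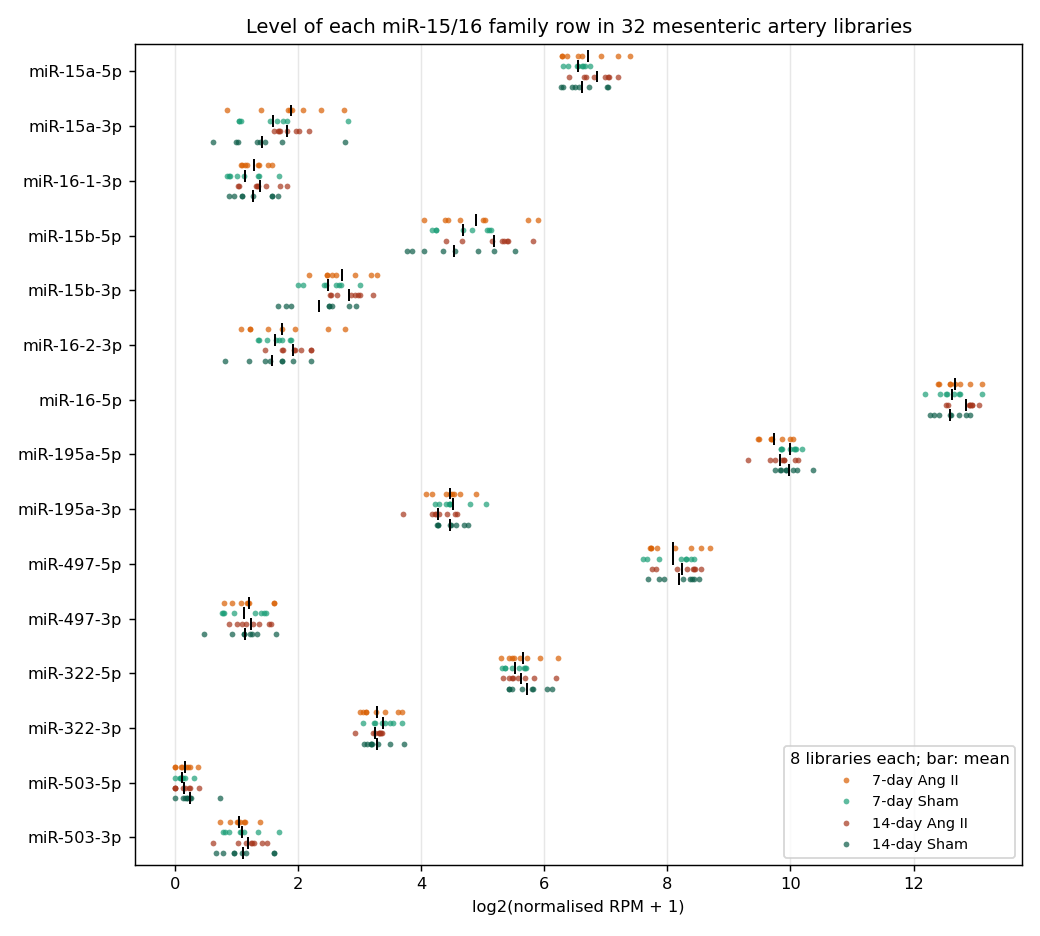
Level of each of the 15 rows in every library, as log2(RPM + 1) on the horizontal axis, with 8 points per group and a bar at the group mean. The members span from miR-503-5p, near 0, to miR-16-5p, at 4641 to 8870 RPM, and the 4 groups overlap for each member.

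After 7 days of Ang II, 0 of 14 members passed the test, limma on log2(RPM + 1) with a Benjamini-Hochberg adjusted p under 0.05 over 543 rows. Of all tested rows, 0.184% passed. edgeR and DESeq2 on the recovered reads also called 0 members. At an unadjusted p under 0.05, limma had 1 member, against 6.81% of all rows. The median log2 fold change was 0.10 over the members and -0.01 over all rows. With library class as a term, an alternative added after the data were seen, again 0 of 14 members passed (smallest limma adjusted p = 0.257), and 6 had an unadjusted p under 0.05, 5 of them higher, against 14.4% of all rows in that fit.

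The 1 member was miR-195a-5p. Its values ran from 710 to 1047 RPM with a median of 827 RPM in the 7-day Ang II arteries, against 918 to 1169 RPM with a median of 1044 RPM in the 7-day sham arteries. The means were 862 ± 125.7 RPM with Ang II, against 1023 ± 93.1 RPM in sham (SD, n = 8 each). In 7 of 8 Ang II libraries the level was below the sham median, and in 5 it was below every sham library. The log2 fold change was -0.25 ± 0.10 (SE, 95% interval -0.47 to -0.04), and the limma adjusted p was 0.496. In bulk arteries, fewer cells of a type and less RNA per cell cannot be told apart. Class A alone gave a difference of -0.35, and class B alone gave -0.11. By mouse-number series, the leading digits of the mouse numbers, it was -0.30 in series 27 and -0.17 in series 28. In series 28, however, every 7-day Ang II library was of class B and most 7-day sham libraries were of class A. The median of miR-195a-5p was 924 RPM in class B and 1047 RPM in class A, so the series 28 value mixes class with treatment.

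Markers of the vessel wall had log2 fold changes below 0 at 7 days, but their summed levels were near those of sham. All 4 smooth muscle arms had a log2 fold change below 0, 1 of 4 was called lower, and the median was -0.23. Their sums were 307291 to 728925 RPM (median 512725) with Ang II, against 374113 to 645607 RPM (median 492452) in sham. Most of each sum was miR-143-3p, with means of 503575 RPM with Ang II and 500153 RPM in sham. Both endothelial arms had a log2 fold change below 0 and 0 were called, with a median of -0.12. The endothelial sums were 13740 to 31610 RPM (median 22107) with Ang II, against 17008 to 30576 RPM (median 22390) in sham. In the other marker lists 0 arms were called at 7 days. Above 0 were 0 of 3 neuronal, 2 of 9 epithelial, 1 of 4 striated muscle and 2 of 6 pancreatic acinar arms. All 5 red blood cell arms lay above 0 (median 0.35), as did 4 of 5 leukocyte arms (median of all 5 0.15). None of these markers was at 0, and their part in the value of miR-195a-5p was not tested.

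Its partner arm, miR-195a-3p, averaged 21.3 ± 3.995 RPM with Ang II, against 22.3 ± 4.77 RPM in sham (SD, n = 8 each; log2 fold change -0.06). From the same locus, miR-497-5p ran from 210 to 414 RPM with a median of 251 RPM with Ang II, against 193 to 345 RPM with a median of 305 RPM in sham. Its log2 fold change was -0.001 ± 0.17 (SE; limma adjusted p = 0.999), and its sign turned in 4 alternatives and when any of 9 of the 16 libraries was dropped. The difference between miR-195a-5p and miR-497-5p was not tested.

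In the other members at 7 days, log2 fold changes ran from -0.10 for miR-322-3p to 0.29 for miR-15a-3p. The most abundant, miR-16-5p, had 5390 to 8841 RPM with a median of 6359 RPM with Ang II, against 4641 to 8870 RPM with a median of 6216 RPM in sham. Its groups overlapped over nearly their whole range (log2 fold change 0.06 ± 0.12 SE, limma adjusted p = 0.953). For miR-322-5p, the means were 50.2 ± 11.6 RPM with Ang II, against 45.0 ± 5.18 RPM in sham (SD, n = 8 each), and the log2 fold change was 0.13 ± 0.13 (SE, limma adjusted p = 0.914).

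Class and treatment were unevenly mixed at 7 days, so the same differences are given within each class, with 3 Ang II against 5 sham libraries in class A and 5 against 3 in class B. For miR-16-5p the difference was 0.17 in class A and 0.15 in class B, for miR-322-5p it was 0.33 and 0.12, and for miR-497-5p it was 0.21 and 0.12. For miR-15b-5p it was 0.60 in class A and 0.28 in class B, and for miR-15a-5p 0.53 and 0.02, where the pooled log2 fold changes were 0.21 and 0.15. These are the tested 5p arms other than miR-195a-5p, and all 5 lay above 0 in both classes. So did miR-15b-3p, miR-16-1-3p and miR-497-3p. Below 0 in both were miR-195a-5p (-0.35 and -0.11) and miR-322-3p (-0.0007 and -0.055). The sign differed between the classes for miR-15a-3p, miR-16-2-3p, miR-195a-3p and miR-503-3p. The share of all rows above 0 in both classes was not computed. By mouse-number series the 5 arms named first were above 0 in series 27 (0.19 to 0.60) and below 0 in series 28 (-0.39 to -0.07). In series 28, however, every 7-day Ang II library was of class B and most 7-day sham libraries were of class A. Treatment and class are therefore largely mixed within series 28, where replicate 7 was the only 7-day sham library of class B.

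**Figure D2:**
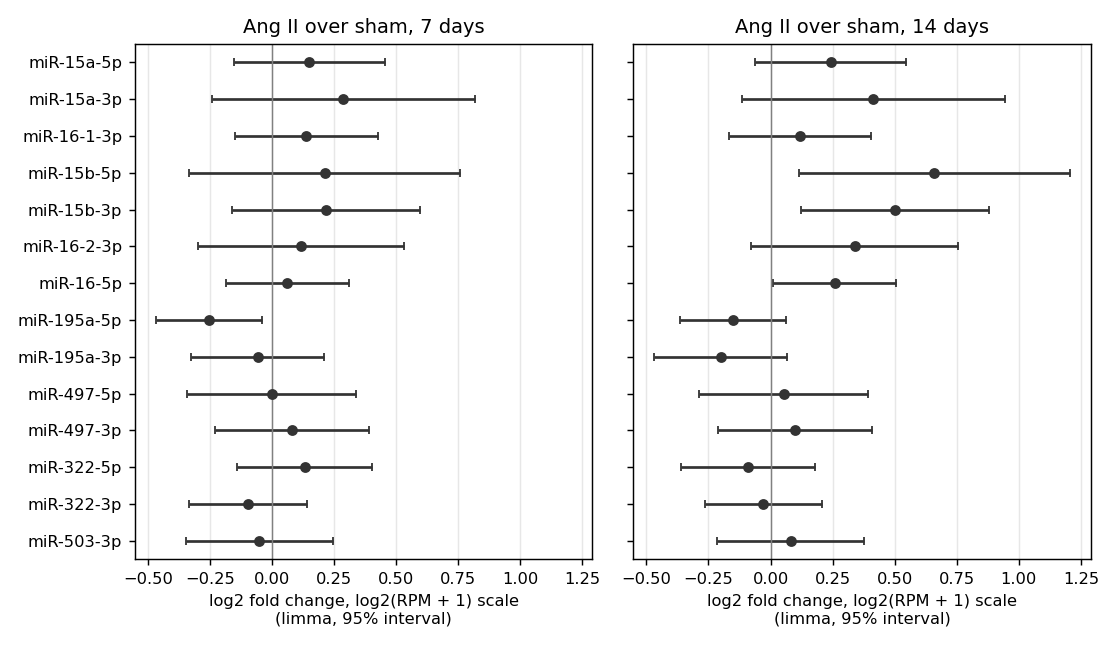
Log2 fold change of Ang II over sham for the 14 tested members, at 7 days (left) and 14 days (right), with 95% intervals from limma. At 7 days the interval of miR-195a-5p lies below 0, and at 14 days those of miR-15b-5p, miR-15b-3p and miR-16-5p lie above 0. None of these passed after adjustment over 543 rows.

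After 14 days of Ang II, 0 of 14 members passed, against 6.45% of all rows (35 of 543, of which 24 were higher and 11 lower). At an unadjusted p under 0.05, limma had 3 members, all higher, against 14.5% of all rows higher and 25.8% in either direction. edgeR and DESeq2 likewise called 0 members and had 3 each under an unadjusted p of 0.05. The 3 limma members were both arms of miR-15b and miR-16-5p. The median log2 fold change was 0.11 over the members and 0.002 over all rows, and 10 of 14 members had a value above 0, against 272 of 543 rows.

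The guide arm miR-15b-5p ran from 20.2 to 55.1 RPM with a median of 39.2 RPM in the 14-day Ang II arteries, against 12.6 to 45.1 RPM with a median of 20.98 RPM in the 14-day sham arteries. It was above the sham median in 7 of 8 Ang II libraries, and the groups overlapped. The means were 36.8 ± 10.9 RPM with Ang II, against 24.1 ± 11.6 RPM in sham (SD, n = 8 each), and the log2 fold change was 0.66 ± 0.27 (SE, limma adjusted p = 0.117).

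The passenger arm miR-15b-3p ran from 4.71 to 8.26 RPM with a median of 6.42 RPM with Ang II, against 2.17 to 6.65 RPM with a median of 4.65 RPM in sham. All 8 Ang II libraries were above the sham median, and 3 were above every sham library. The means were 6.21 ± 1.24 RPM with Ang II, against 4.27 ± 1.67 RPM in sham (SD, n = 8 each), and the log2 fold change was 0.50 ± 0.19 (SE, limma adjusted p = 0.0909).

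The level of miR-16-5p ran from 5889 to 8563 RPM with a median of 7770 RPM with Ang II, against 4928 to 7778 RPM with a median of 6208 RPM in sham. In 6 of 8 Ang II libraries it was above the sham median, and in 4 above every sham library. The means were 7437 ± 958 RPM with Ang II, against 6242 ± 1033 RPM in sham (SD, n = 8 each), and the log2 fold change was 0.26 ± 0.12 (SE, limma adjusted p = 0.178).

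The 3p arms tell the 2 hairpins of miR-16 apart. For miR-16-2-3p, from the miR-15b locus, the means were 2.82 ± 0.659 RPM with Ang II, against 2.09 ± 0.884 RPM in sham (SD, n = 8 each; log2 fold change 0.34 ± 0.20 SE, limma adjusted p = 0.283). For miR-16-1-3p, from the miR-15a locus, they were 1.64 ± 0.527 RPM with Ang II, against 1.44 ± 0.527 RPM in sham (SD, n = 8 each; log2 fold change 0.12 ± 0.14 SE, limma adjusted p = 0.627). These rest on 20 to 123 and 17 to 52 reads per library with Ang II, and on 8 to 74 and 13 to 24 reads in sham. Neither value passed, and the difference between the 2 hairpins was not tested.

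With library class as a term, 14.7% of all rows passed at 14 days, 8.66% as higher. Both miR-15b-5p (log2 fold change 0.55, limma adjusted p = 0.0333) and miR-16-5p (0.21, limma adjusted p = 0.0496) were then called, 2 of 14 members. For miR-15b-3p the same fit gave 0.45 (limma adjusted p = 0.0598). A share of 2 in 14 is close to the share of all rows in that fit. The difference of miR-15b-5p was 0.60 in class A and 0.47 in class B, with 6 and 2 Ang II libraries against 5 and 3 sham libraries. It was 0.34 within mouse-number series 26, the only series with at least 3 libraries per arm at 14 days. For miR-15b-3p the differences were 0.35, 0.71 and 0.39 in class A, class B and series 26, and for miR-16-5p they were 0.21, 0.20 and 0.09. Class was uneven in series 26, where Ang II replicates 1 and 2 and sham replicate 5 were of class B. Outside series 26, all 14-day Ang II libraries were of class A and all 14-day sham libraries of class B. Pooled 14-day differences without the class term thus mix series, class and treatment.

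Markers of red blood cells also had higher values at 14 days. All 5 of their arms (from miR-486, miR-451a and miR-144) had a log2 fold change above 0 at 14 days, 2 of 5 were called higher, and the median was 0.99. Their summed level was 14978 to 53139 RPM with Ang II, against 5951 to 50268 RPM in sham, and none of the markers was at 0. At 7 days all 5 lay above 0 as well, with a median of 0.35 and 0 called. The 7-day log2 fold changes were 0.06 for miR-16-5p, 0.21 for miR-15b-5p and 0.22 for miR-15b-3p. Of the 5 leukocyte arms, 4 had a log2 fold change above 0 and 0 were called, with sums of 589 to 1319 RPM with Ang II, against 525 to 993 RPM in sham. Of the 9 epithelial arms, all had a log2 fold change below 0 and 1 was called lower, with sums of 1128 to 1763 RPM with Ang II and 1350 to 5051 RPM in sham. Both endothelial arms had a log2 fold change below 0 and 0 were called, with a median of -0.33 and sums of 12975 to 25109 RPM with Ang II, against 16900 to 35282 RPM in sham. Of the 4 smooth muscle arms 1 was above 0 and 0 were called, with sums of 196039 to 565287 RPM with Ang II, against 317571 to 739444 RPM in sham. Above 0 were 1 of 3 neuronal, 1 of 4 striated muscle and 1 of 6 pancreatic acinar arms, with 0 called. The part of these cell types in the values of miR-15b and miR-16 was not tested.

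**Figure D3:**
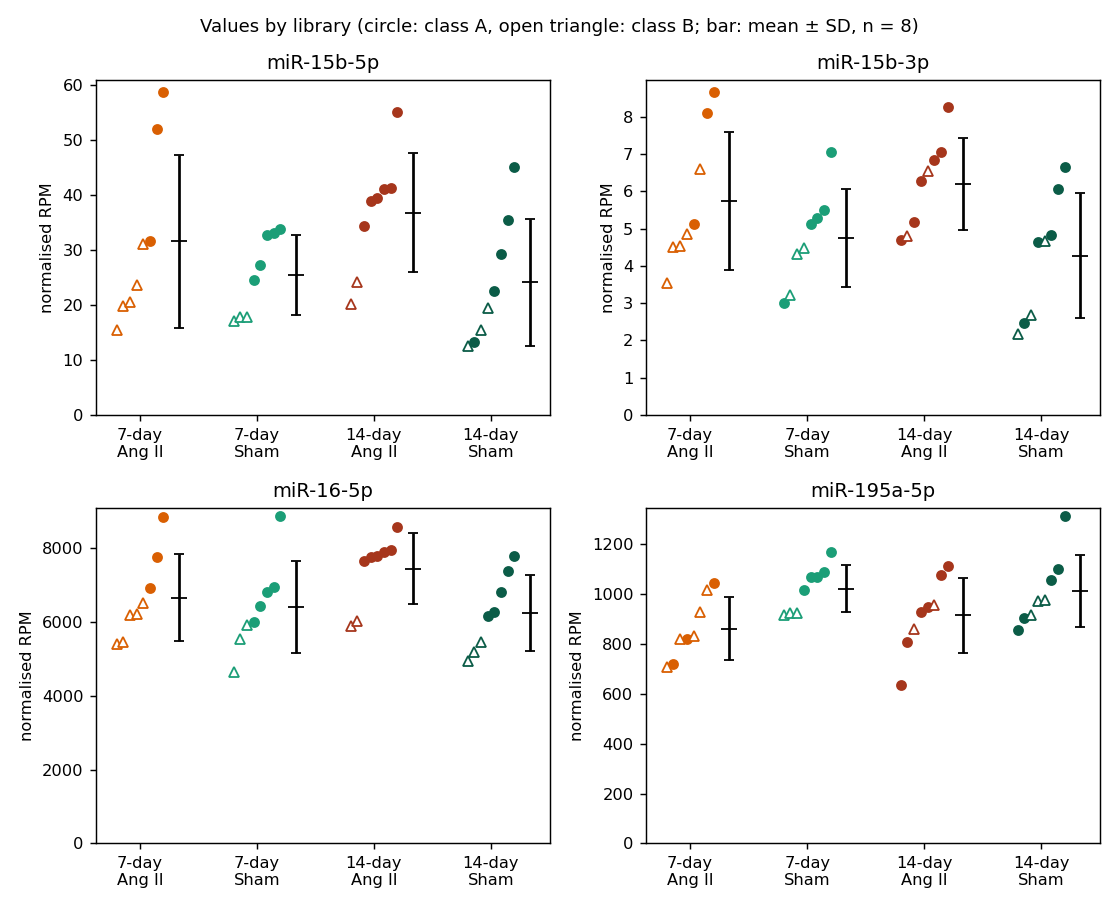
Normalised RPM of miR-15b-5p, miR-15b-3p, miR-16-5p and miR-195a-5p in each library, with mean and SD beside each group of 8 and with the library class as the symbol. Class B libraries (open triangles) lie low in each group for miR-16-5p, and at 14 days all 8 Ang II values of miR-15b-3p lie above the sham median of 4.65 RPM.

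At 14 days miR-195a-5p ran from 637 to 1113 RPM with a median of 940 RPM with Ang II, against 858 to 1312 RPM with a median of 976 RPM in sham. The means were 917 ± 151 RPM with Ang II, against 1012 ± 144.97 RPM in sham (SD, n = 8 each), a log2 fold change of -0.15 ± 0.10 (SE, limma adjusted p = 0.349), which was 0.12 when libraries were scaled by their totals alone. That scaling moved the median of all rows by 0.226, so relative to the median the value stayed below 0. For miR-195a-3p the means were 18.6 ± 3.47 RPM with Ang II, against 21.4 ± 3.09 RPM in sham (SD, n = 8 each; log2 fold change -0.20 ± 0.13 SE, limma adjusted p = 0.324; 0.06 with library totals). Both arms of miR-195a thus lay below sham on the deposited scale, and neither passed.

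Of the remaining members at 14 days, miR-15a-5p averaged 116 ± 20.8 RPM with Ang II, against 98.4 ± 21.03 RPM in sham (SD, n = 8 each; log2 fold change 0.24 ± 0.15 SE, limma adjusted p = 0.299). It was above the sham median in 7 of 8 libraries. For miR-497-5p the means were 306 ± 59.1 RPM with Ang II, against 296 ± 59.8 RPM in sham (SD, n = 8 each), and for miR-322-5p they were 49.2 ± 10.7 RPM with Ang II, against 52.4 ± 10.4 RPM in sham (SD, n = 8 each). Their log2 fold changes were 0.05 and -0.09, the last of which was 0.17 with library totals. The interval for miR-322-5p, -0.36 to 0.18, bounds the difference on the deposited scale. The minor arm miR-503-3p averaged 1.30 ± 0.395 RPM with Ang II, against 1.20 ± 0.555 RPM in sham (SD, n = 8 each; log2 fold change 0.08), and miR-503-5p was at 0.107 ± 0.110 RPM with Ang II, against 0.1902 ± 0.1968 RPM in sham (SD, n = 8 each).

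Whether the Ang II difference itself differed between the times was tested with the interaction of time and treatment. No member passed (0 of 14, with 0.0% of all rows passing; limma), and 0 members had an unadjusted p under 0.05, against 4.6% of all rows. The largest value among members was 0.45 for miR-15b-5p (SE 0.38, limma adjusted p = 0.831), and the lowest was -0.22 for miR-322-5p (SE 0.19, limma adjusted p = 0.831). edgeR and DESeq2 also called 0 members. With library class as a term 0 members passed and 1 had an unadjusted p under 0.05, against 5.89% of all rows. That was miR-322-5p, with -0.37 (SE 0.13, limma adjusted p = 0.786), while miR-15b-5p was at 0.13 in that fit.

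Between the sham groups, 14-day against 7-day, 0 of 14 members passed (0.0% of all rows; limma, edgeR and DESeq2 alike for the members). No member had an unadjusted p under 0.05, against 3.31% of all rows; with library class as a term 1 had (miR-322-5p), against 5.34%. The log2 differences ran from -0.18 for miR-15a-3p to 0.20 for miR-322-5p, which averaged 52.4 ± 10.4 RPM in the 14-day and 45.0 ± 5.18 RPM in the 7-day sham arteries (SD, n = 8 each). Since the sham groups enter both, this value and the Ang II differences of miR-322-5p share libraries. All 7-day sham mice were of mouse-number series 27 or 28, and most 14-day sham mice were of series 26. The differences between the sham groups therefore cannot be read as differences of time alone.

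The choice of arm was nearly fixed for miR-497, miR-195a and miR-15a, and less so for the other hairpins. The 5p arm supplied 99.6% ± 0.132 of the reads of both arms for miR-497, 97.8% ± 0.459 for miR-195a and 97.6% ± 1.503 for miR-15a (SD, n = 32 each). It supplied 84.4% ± 2.44 for miR-322 and 84.2% ± 3.51 for miR-15b. The hairpin of miR-503 stood the other way round: 66 reads came from the 5p arm and 654 from the 3p arm, so that the arm with the family seed was 9.17% of both (exact 95% binomial interval 7.16 to 11.5, counting error only).

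The 5p share of miR-503 was 9.93% with 7-day Ang II, 6.13% in 7-day sham, 7.59% with 14-day Ang II and 13.6% in 14-day sham, each pooled over 8 libraries. The exact intervals of these 4 shares overlapped, with 10 to 23 reads of the 5p arm per group. They cover counting error and not the spread between mice, and differences between the groups were not tested. Of the 23 reads in 14-day sham, 9 came from replicate 6. Over all libraries miR-322-5p had 27200 reads, against the 66 of miR-503-5p, and in each group its level was 37.9 to 46.7 times that of miR-503-3p. Both hairpins lie 200 bases apart on the same strand.

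The ratio of the arms within a library was compared between Ang II and sham with limma over 114 hairpins whose arms were both tested. At either time 0 of 114 ratios passed (0.0%), with 3 at 7 days and 12 at 14 days under an unadjusted p of 0.05, none of them of the family. For the 5 family hairpins with both arms tested, adjusted p ran from 0.915 to 0.994 at 7 days and from 0.790 to 0.918 at 14 days. The largest log2 difference of the ratio was 0.23 ± 0.13 for miR-322 at 7 days (SE), where the 5p share was 84.8% ± 2.38 in Ang II arteries, against 82.6% ± 1.91 in sham arteries (SD, n = 8 each).

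**Figure D4:**
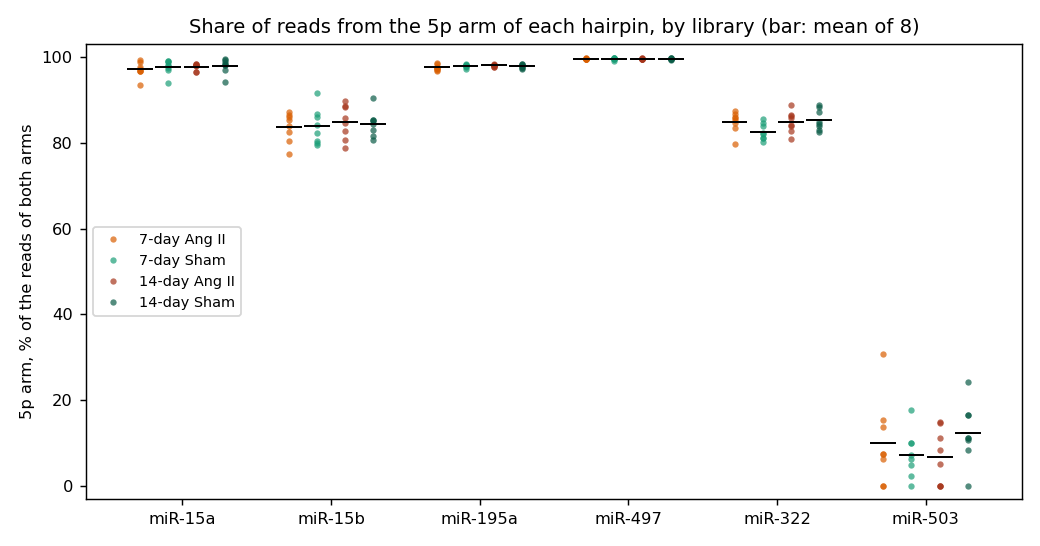
Share of the reads of both arms that came from the 5p arm, in percent, for 6 hairpins in each library, with a bar at each group mean of 8. The shares of miR-15a, miR-195a and miR-497 lie above 90%, those of miR-15b and miR-322 between 77.4% and 91.6%, and those of miR-503 between 0 and 30.8%.

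How members of 1 locus went together across libraries was described by correlations of log2(RPM + 1) after each group mean was subtracted. Because the libraries fall into classes, along which many rows differ, r is given within each class of 19 (A) and 13 (B) libraries, with no test, and points share their library's scaling. On chromosome 3, between miR-15b-5p and miR-16-2-3p, Pearson's r was 0.81 in class A and 0.53 in class B (Spearman's rho 0.75 and 0.34). Between miR-15b-3p and miR-16-2-3p, r was 0.53 in class A and 0.74 in class B (rho 0.63 and 0.64).

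On chromosome 11, between miR-497-5p and miR-195a-5p, r was 0.09 in class A and 0.24 in class B (rho 0.06 and 0.17). By its r over all libraries, miR-195a-5p had rank 212 among the other tested rows in likeness to miR-497-5p. The ranges of miR-497-5p did not overlap between classes, with 284 to 414 RPM in class A and 193 to 277 RPM in class B. Those of miR-195a-5p did, with 637 to 1312 RPM in class A and 710 to 1017 RPM in class B.

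For the locus of chromosome 14, r between miR-15a-5p and miR-16-1-3p was 0.07 in class A and 0.09 in class B (rho 0.02 and 0.05), with 11 to 52 reads of miR-16-1-3p per library. The abundant miR-16-5p had an r of 0.47 in class A and 0.57 in class B with miR-15a-5p (rho 0.41 and 0.53), and of 0.35 and 0.33 with miR-15b-5p (rho 0.50 and 0.24). On chromosome X, miR-322-5p and miR-503-3p had an r of -0.09 in class A and 0.38 in class B (rho -0.03 and 0.07), with 6 to 56 reads of miR-503-3p per library.

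**Figure D5:**
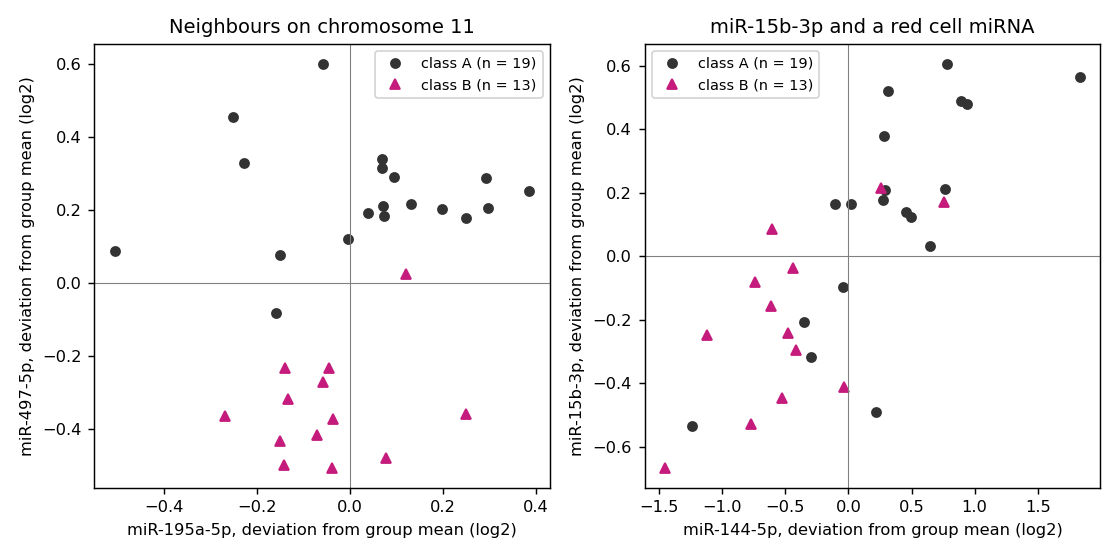
Deviation of each library from its group mean on the log2(RPM + 1) scale, for miR-497-5p against miR-195a-5p (left) and miR-15b-3p against miR-144-5p (right), with class A as circles (n = 19) and class B as triangles (n = 13). On the left class A lies from -0.081 to 0.60 and class B from -0.51 to 0.024 along miR-497-5p; on the right both axes go together within each class.

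Among the rows outside the family, likeness was ranked by r over all 32 libraries after group means were subtracted. The row most like miR-16-5p was miR-425-5p (r 0.84, with 0.64 in class A and 0.10 in class B). For miR-15b-5p it was miR-674-3p (r 0.88, with 0.88 and 0.24), for miR-322-5p it was miR-125b-5p (r 0.88, with 0.81 and 0.26), and for miR-497-5p it was let-7d-5p (r 0.94, with 0.78 and 0.63). Values in class B were lower for all 4.

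For miR-15b-3p and miR-195a-5p the same ranking was added after their values were seen. The row most like miR-15b-3p was miR-144-5p, a red blood cell marker, with an r of 0.79 over all libraries, 0.76 in class A and 0.65 in class B (rho 0.80, 0.75 and 0.53). This row averaged 64.0 ± 20.9 RPM with 14-day Ang II and 31.8 ± 17.5 RPM in 14-day sham (SD, n = 8 each). Next in likeness to miR-15b-3p were miR-148b-5p (r 0.70) and miR-106b-5p (r 0.67), neither of them on the list of red blood cell markers. The row most like miR-195a-5p was miR-23a-3p, with an r of 0.64 over all libraries, 0.78 in class A and 0.34 in class B.

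The miR-322/miR-503 cluster of chromosome X holds further hairpins with other seeds, out to Mir450b, 6176 bases from Mir322. Of their arms, 5 were tested, and the most abundant was miR-351-5p with 92.1 ± 15.4 RPM (SD, n = 32), followed by miR-450a-5p with 7.43 ± 2.86 and miR-542-3p with 4.44 ± 1.20 RPM. At both times 0 of 5 passed, and 0 of 5 had an unadjusted p under 0.05 (limma). Their log2 fold changes ran from -0.07 to 0.17 at 7 days and from -0.22 to 0.10 at 14 days. Across libraries, miR-322-5p had an r of 0.73 in class A and 0.44 in class B with miR-450a-5p (rho 0.79 and 0.55), of 0.84 and -0.05 with miR-450b-5p (rho 0.82 and -0.05), and of -0.10 and -0.31 with miR-351-5p (rho -0.17 and -0.48).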

How the data were processed

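The authors deposited a table of signal, 1 value for each miRNA and library, and the file states no unit. All values (100% of 55104, tolerance 0.001) were a whole number of reads times a library-specific step, so whole reads were recovered. Column totals were 0.727 to 1.67 M (mega). Of tools, edgeR 3.6.8, R 3.2.3, STAR 2.3.1, FastQC and bcl2fastq 1.8.4 are listed, with the build mm10 and no role, in the submitters' processing notes; miRNA annotation is not given in the sources used here.

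The highest-mean row per name was kept (1030 distinct rows with reads), and 543 with a mean of at least 1 were tested with limma 3.58.1 (trend, 1 model for 4 groups, R 4.3.3) on log2(value + 1), which understates changes of low rows. Adjustment was Benjamini-Hochberg over all tested rows, two-sided, called under 0.05. Arm ratios used the same model. Replicates are mice by number, and p-values measure the spread between their libraries. Alternatives were edgeR 4.0.16, DESeq2 1.42.0, other scalings, filters and pseudocounts, and libraries left out. The scripts were tested on simulated data. Members and lists were chosen, and all members named, with earlier results of these data known.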

Additional observations from a re-analysis of the deposited data

Results flagged for a closer look

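Within groups of 8 libraries, 4 of 60 sets of values (15 members in 4 groups) had 1 library farther from its nearest neighbour than Dixon's 95% limit allows; chance gives about 3. In miR-15a-3p, 7-day sham replicate 4 stood at 5.98 RPM (65 reads) against 2.51 RPM in the next library, a gap of 0.704 of the group's range. In the same arm, 14-day sham replicate 5 stood at 5.74 RPM (64 reads) against 2.34 RPM, a gap of 0.654. Both are class B libraries, and miR-15a-3p had a median of 1.75 RPM in class A and 2.71 RPM in class B. In miR-322-3p, 14-day Ang II replicate 1 was the lowest at 6.55 RPM (75 reads), against 8.25 RPM in the next, a gap of 0.625. In miR-503-5p, 14-day sham replicate 6 stood at 0.654 RPM, which is 9 reads, against 0.189 RPM, a gap of 0.711.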

How the results depend on the processing

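Counts of called members were 0 under each alternative in each comparison, except for the 2 at 14 days with library class as a term. Counts over all rows moved more. At 7 days (1 called) the count was 0 with library totals and with the compared groups alone, and 0 to 1 with a library left out. At 14 days (35 called) it was 23 with library totals, 17 without the filter, 55 with edgeR, 61 with DESeq2, 3 with the compared groups alone, 80 with library class as a term, and 21 to 42 with a library left out. For the sham groups (0 called) it was 1 with a mean of at least 10, edgeR, DESeq2, the series term (mouse-number series) and the compared groups alone, and 0 to 1 with a library left out. Arm ratios (0 called) gave 4 with a pseudocount of 10 and 2 with library class as a term. The cause was not tested.

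Signs turned for small differences. At 7 days miR-497-5p was 0.044 with library totals, 0.033 with edgeR, 0.0040 with the series term and 0.16 with the class term, and miR-503-3p was 0.011 with the class term. At 14 days library totals gave 0.12 for miR-195a-5p, 0.056 for miR-195a-3p, 0.17 for miR-322-5p and 0.21 for miR-322-3p, with a median of 0.23 over all rows. For miR-497-5p at 14 days the series term gave -0.018 and the class term -0.025. Arm ratios turned at 7 days with a pseudocount of 10 (miR-15a 0.064, miR-15b 0.083) and the class term (0.14 and 0.12), and at 14 days with a pseudocount of 10 (miR-15a 0.14, miR-195a -0.011, miR-497 0.034).

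With a library left out, the ranges that crossed 0 at 7 days were -0.028 to 0.21 for miR-16-2-3p, -0.0012 to 0.13 for miR-16-5p, -0.12 to 0.017 for miR-195a-3p, -0.086 to 0.053 for miR-497-5p and -0.10 to 0.033 for miR-503-3p. At 14 days they were -0.061 to 0.034 for miR-322-3p and -0.019 to 0.12 for miR-497-5p. For arm ratios they were, at 7 days, -0.32 to 0.035 (miR-15a), -0.067 to 0.12 (miR-15b) and -0.19 to 0.0096 (miR-497), and at 14 days -0.37 to 0.0018 (miR-15a), -0.012 to 0.10 (miR-195a) and -0.10 to 0.018 (miR-497). The 14-day values of miR-15b-5p (0.55 to 0.80), miR-15b-3p (0.41 to 0.59) and miR-16-5p (0.21 to 0.31) stayed above 0. For miR-15b-3p a pseudocount of 10 gave 0.19, and for miR-16-5p library totals gave 0.53.

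No paired analysis was possible because the labels give mouse numbers and no replicate numbers shared between groups. Depth limits the 3p arms of miR-15a, miR-16 and miR-497 and both arms of miR-503, which had at most 123 reads in a library.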

Other observations

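Within a library, the level of miR-195a-5p relative to miR-16-5p, which does not depend on the scaling of the libraries, was set side by side after the values of both were seen, so no test is given. At 7 days it was 8.12% to 16.4% with a median of 14.1% with Ang II, against 12.3% to 19.8% with a median of 16.3% in sham. At 14 days it was 8.07% to 16.2% with a median of 12.4% with Ang II, against 12.6% to 19.8% with a median of 17.4% in sham. It was below the sham median in 7 of 8 Ang II libraries at 7 days and in 8 of 8 at 14 days, where 5 lay below every sham library.

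On the log2 scale the ratio differed by -0.32 at 7 days and by -0.41 at 14 days, and by -0.37 to -0.22 and -0.47 to -0.32 with a library left out. Within class A the differences were -0.51 at 7 days and -0.41 at 14 days, and within class B they were -0.26 and -0.27. The part of red blood cell RNA, whose markers are given with the 14-day values of miR-16-5p, was not tested.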
